A study of Mus musculus with 3 samples.

Results

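The genes described here are 37 mouse genes of the cellular response to low oxygen, in a hypoxia group of 20 hypoxia-induced signalling and adaptation genes and a glycolysis group of 17 genes of glucose breakdown. They were chosen by name and matched by exact gene symbol to the authors' deposited table of differences between RNA-seq libraries. Of the 37 genes, 33 had a row, 17 in the hypoxia group and 16 in the glycolysis group, among 11886 genes in all. Car12, Adm and Stc2 of the hypoxia group and Eno2 of the glycolysis group had no row and are not analysed here.

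The cells were mT3-2D-GFP, 1 murine KPC line of C57BL/6 origin (KPC is a mouse model of pancreatic cancer) with a green fluorescent protein (GFP). The WT tumour group came from C57BL/6 (WT) mice bearing this line, as GFP-positive sorted cells of 6 tumours whose RNA was combined in equal amounts. The SCID tumour group was made likewise from 5 tumours in B6.CB17-Prkdcscid/SzJ (SCID) mice, a strain without T and B cells that keeps its myeloid cells and fibroblasts. The cultured line, grown in medium with 10% serum and described by the labels with no sort, was the control for both. Mouse ages were not stated, and the GFP, carried by the line, was in all 3 groups.

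In cells short of oxygen the prolyl hydroxylases (the Egln genes) no longer mark the transcription factor subunit HIF-1 alpha (Hif1a) for destruction, and HIF binds a short core sequence near its target genes. The targets fall into genes of adaptation, such as those for blood vessel growth, acid balance and removal of mitochondria, and genes of glycolysis, which makes energy without oxygen. Pancreatic tumours are known for poor blood supply and for high glucose use. HIF-1 alpha is controlled mainly at the level of its protein, so its RNA is not a measure of its activity.

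Each group was 1 library of pooled RNA, so no difference was tested, none has a replicate check and variation among tumours is unmeasured. Every value given for a gene or transcript is from the authors' deposited table: a difference between 2 libraries on its scale, read as log2, averaged over transcripts for a gene. The table holds no level per library, so levels cannot be set side by side, and library depths are unknown. The call for higher or lower was a difference of 1, which is 2-fold. Transcripts of 1 gene varied with a pooled SD of 0.31 for the WT pool minus the line, 0.33 for the SCID pool minus the line and 0.22 for WT minus SCID, a spread of transcripts and not of animals. The values of both tumour pools against the line share the same line library and are therefore not independent of each other. In sorted bulk RNA a change in the mix of cells and a change of RNA within each cell cannot be told apart. Because the table holds no levels, whether the tumour cells' own markers were present cannot be measured. All 11 listed markers of tumour epithelium had a row, but filters were not stated, so a row does not show presence in a given library.

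Most hypoxia-induced genes stood above the cultured line in both tumour pools, and the glycolytic enzymes were divided around it. In the hypoxia group 15 of 17 genes were above 0 in the WT pool, where 48.6% of all genes were, and 15 in the SCID pool, where 48.3% were. Of the 17 measured genes of the hypoxia group, 7 were higher by 2-fold or more in the WT pool, against 4.12% of all genes, and 7 in the SCID pool, against 3.65% of all genes. They were the same 7 genes, Ddit4, Bnip3, Ndrg1, Car9, Ankrd37, Mxi1 and Vegfa. No gene of this group was lower by 2-fold in the WT pool, where 2.03% of all genes were, or in the SCID pool, where 2.62% were. The group median was 0.67 in the WT pool and 0.88 in the SCID pool, beside medians over all genes of -0.01 in the WT pool and -0.02 in the SCID pool. In the glycolysis group 0 of 16 genes passed 2-fold in either direction, and its median was -0.07 in the WT pool and 0.01 in the SCID pool. At 1.5-fold, 11 hypoxia genes were higher in the WT pool, against 11.3% of all genes, and 11 in the SCID pool, against 11.0%, while Pfkp was the 1 glycolysis gene in each.

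**Figure D1:**
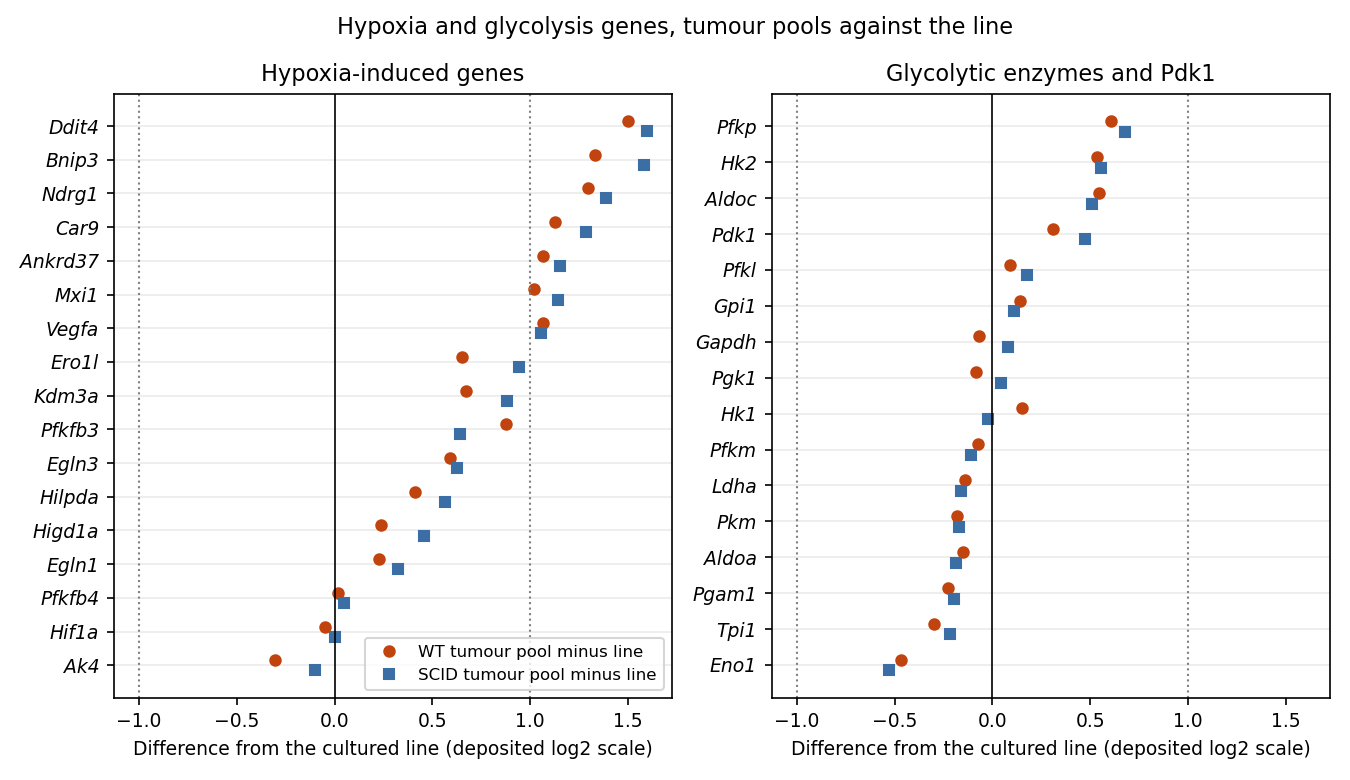
Difference of each measured gene from the cultured line, in the WT tumour pool (circles) and the SCID tumour pool (squares), on the deposited log2 scale, with dotted lines at 2-fold. Among hypoxia-induced genes 7 lie beyond 2-fold in both pools, led by Ddit4 at 1.501 in WT and 1.60 in SCID, while all glycolysis genes lie between -0.53 and 0.68.

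Of the hypoxia group, Ddit4 and Bnip3 had the highest gene values in both pools. Ddit4, which encodes an inhibitor of the growth kinase mTORC1, was at 1.501 in the WT pool and 1.60 in the SCID pool, or 2.83-fold and 3.02-fold above the line. In the SCID pool it ranked 88 from the top of 11886 genes, and in the WT pool 148. The table places it on chromosome 10 from 59949675 to 59951770, on the reverse strand, in coordinates that match GRCm38. Bnip3, a mitochondrial outer membrane protein that directs mitophagy, was at 1.33 in the WT pool and 1.58 in the SCID pool. Higd1a, a small protein of the mitochondrial inner membrane, stayed within 2-fold at 0.24 in the WT pool and 0.46 in the SCID pool. Ndrg1, a stress-induced cytoplasmic protein long used as a hypoxia marker, was at 1.30 in the WT pool and 1.39 in the SCID pool.

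Genes that act outside the cell or at its surface were also higher. Car9, a membrane carbonic anhydrase that exports acid, was at 1.13 in the WT pool (2.19-fold) and 1.29 in the SCID pool (2.44-fold). Vegfa, the main growth factor of blood vessels, was at 1.07 in the WT pool and 1.05 in the SCID pool. All 10 Vegfa transcripts of the table were between 0.95 and 1.38 in the WT pool and between 0.89 and 1.28 in the SCID pool. Most of those with a matched sequence share all of it with other Vegfa transcripts, so these values are not independent. Just past 2-fold were Mxi1, Vegfa and Ankrd37 in the WT pool and Vegfa in the SCID pool, and the nearest genes short of it were Pfkfb3 in the WT pool, at 0.88, and Ero1l in the SCID pool, at 0.94. Ero1l, now named Ero1a, encodes an oxidase of the endoplasmic reticulum that forms disulphide bonds, and was at 0.65 in the WT pool.

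The transcriptional regulator Mxi1 and Ankrd37 passed 2-fold, while the oxygen sensors Egln1 and Egln3 and the regulators Hif1a and Kdm3a stayed within it. Egln3, a HIF prolyl hydroxylase that is itself a HIF target, was at 0.59 in the WT pool and 0.63 in the SCID pool. Egln1, the main prolyl hydroxylase in normal oxygen, was at 0.23 in the WT pool and 0.32 in the SCID pool. Hif1a was near 0, at -0.05 in the WT pool and -0.00028 in the SCID pool, with its 3 transcripts on both sides of 0. Kdm3a, a histone demethylase induced by hypoxia, was at 0.67 in the WT pool and 0.88 in the SCID pool, and Ankrd37, an ankyrin repeat protein, was at 1.07 in the WT pool and 1.15 in the SCID pool. Mxi1, an antagonist of MYC, was at 1.02 in the WT pool and 1.14 in the SCID pool as the mean of a pair of unlike transcripts, described further on.

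The remaining genes of the hypoxia group act on metabolism. Pfkfb3, an enzyme that makes the activator of phosphofructokinase, was at 0.88 in the WT pool and 0.64 in the SCID pool. Its relative Pfkfb4 was close to 0, at 0.02 in the WT pool and 0.05 in the SCID pool. Hilpda, a lipid droplet protein, was at 0.41 in the WT pool and 0.56 in the SCID pool. Ak4, a mitochondrial adenylate kinase, was the lowest of the group, at -0.31 in the WT pool and -0.10 in the SCID pool.

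The promoters of the 2 highest and the 2 lowest genes of the hypoxia group in the SCID pool are shown to set the HIF core sequence beside the measured differences. They run from 250 bases before to 50 after a transcript start, are taken from RefSeq (GRCm38.p6) and read 5′ to 3′ on the gene's strand. Capitals mark ACGTG or GCGTG on either strand, so that they also read CACGT or CACGC, and matches that overlap run together. The windows are chr10:59951721-59952020 (reverse strand) for Ddit4, chr7:138909457-138909756 (reverse strand) for Bnip3, chr12:73907617-73907916 (forward strand) for Hif1a and chr4:101419039-101419338 (forward strand) for Ak4.
Ddit4: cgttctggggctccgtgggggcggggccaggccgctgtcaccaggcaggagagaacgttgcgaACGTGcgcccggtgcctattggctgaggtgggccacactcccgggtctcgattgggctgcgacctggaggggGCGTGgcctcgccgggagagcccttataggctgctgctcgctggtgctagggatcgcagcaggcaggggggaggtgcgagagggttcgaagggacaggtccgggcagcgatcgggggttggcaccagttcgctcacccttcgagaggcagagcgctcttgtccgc
Bnip3: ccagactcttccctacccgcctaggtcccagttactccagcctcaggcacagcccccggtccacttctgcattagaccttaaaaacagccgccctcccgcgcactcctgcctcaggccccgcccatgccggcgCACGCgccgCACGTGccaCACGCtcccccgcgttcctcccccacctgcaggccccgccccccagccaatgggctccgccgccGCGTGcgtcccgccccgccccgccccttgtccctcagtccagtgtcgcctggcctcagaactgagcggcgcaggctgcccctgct
Hif1a: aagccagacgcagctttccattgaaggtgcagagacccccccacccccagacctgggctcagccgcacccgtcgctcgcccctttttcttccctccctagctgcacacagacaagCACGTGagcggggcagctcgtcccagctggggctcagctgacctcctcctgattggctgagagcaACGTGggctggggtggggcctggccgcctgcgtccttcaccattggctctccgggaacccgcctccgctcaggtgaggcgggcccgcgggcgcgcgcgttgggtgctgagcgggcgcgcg
Ak4: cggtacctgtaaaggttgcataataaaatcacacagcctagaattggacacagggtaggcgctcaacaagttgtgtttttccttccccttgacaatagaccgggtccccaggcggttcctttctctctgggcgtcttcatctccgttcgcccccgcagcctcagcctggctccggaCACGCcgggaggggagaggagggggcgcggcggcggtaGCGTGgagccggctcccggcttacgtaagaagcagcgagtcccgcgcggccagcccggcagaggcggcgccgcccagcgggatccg
All 4 windows held the core. The windows of Hif1a and Ak4 belong to transcripts above 0 in the SCID pool, at 0.12 for Hif1a and 0.16 for Ak4. The Ak4 transcripts below 0, at -0.31, start within the printed window, and the Hif1a transcript below 0, at -0.24, had no RefSeq promoter at its start. Ddit4 had 2 separate runs of capitals and Bnip3 4, while Hif1a and Ak4 had 2 each.

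Over the group, 22 promoters lay at the start of a deposited transcript, from 15 of the 17 genes, and 19 of the 22 held either form (86.4%). In the glycolysis group it was 15 of 19 promoters (78.9%), from 13 of 16 genes. Among the 9420 promoters of the RefSeq table at the start of any deposited transcript the share was 63.9%, and 43.8% over all 32851 promoters listed there. For ACGTG alone the shares were 59.1% in the hypoxia group, 52.6% in the glycolysis group, 25.9% at the start of deposited transcripts and 19.6% over all promoters. Median GC contents of the promoters were 64.3% in the hypoxia group, 63.3% in the glycolysis group and 61.3% at the start of deposited transcripts. The part of base composition in the shares with the core was not tested. A match is only a run of letters and no evidence of binding, and several promoters of 1 gene overlap.

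Where the group held more than 1 form of a glycolytic enzyme, the gene values of the forms differed. Of the 16 genes, 6 were above 0 in both tumour pools, 7 were below 0 in both and 3 lay on different sides. The shares of all genes with these patterns were not counted. The 4 highest in the SCID pool were Pfkp, Hk2, Aldoc and Pdk1. Pfkp, the platelet form of phosphofructokinase, was at 0.60 in the WT pool and 0.68 in the SCID pool. Hk2, the inducible hexokinase of the first step, was at 0.54 in the WT pool and 0.56 in the SCID pool, and Aldoc, the brain form of aldolase, at 0.54 in the WT pool and 0.51 in the SCID pool. Pdk1, a kinase that blocks pyruvate dehydrogenase, was at 0.31 in the WT pool and 0.47 in the SCID pool.

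The other forms of hexokinase, phosphofructokinase and aldolase in the group were nearer to 0. Hk1, the constitutive hexokinase, was at 0.15 in the WT pool and -0.02 in the SCID pool, so Hk2 stood above it by 0.39 in the WT pool and 0.58 in the SCID pool. Pfkl, the liver form of phosphofructokinase, was at 0.09 in the WT pool and 0.18 in the SCID pool, and Pfkm, the muscle form, at -0.07 in the WT pool and -0.11 in the SCID pool. Aldoa, the muscle form of aldolase that most tissues use, was at -0.15 in the WT pool and -0.18 in the SCID pool, 0.69 below Aldoc in each. The lowest Aldoc transcript, at 0.48 in the WT pool and 0.33 in the SCID pool, lay above the highest Aldoa transcript of each pool, at -0.04 in the WT pool and -0.07 in the SCID pool. The lower Pfkp transcript, at 0.24 in the WT pool and 0.22 in the SCID pool, was above the 1 transcript of Pfkl and the higher one of Pfkm, but by less than the SD between transcripts.

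**Figure D2:**
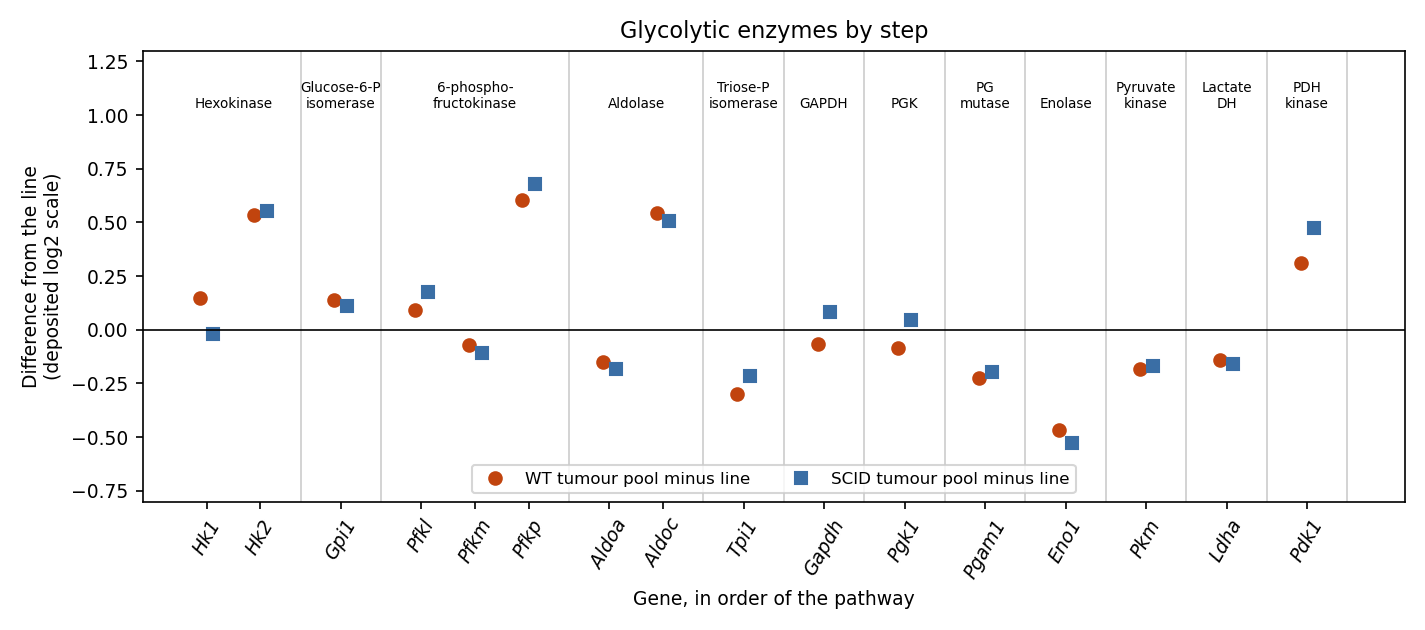
Difference of each glycolysis gene from the cultured line, in the order of the pathway, in the WT tumour pool (circles) and the SCID tumour pool (squares), on the deposited log2 scale. Hk2, Pfkp and Aldoc lie between 0.51 and 0.68, above the other forms of the same enzymes, while the enzymes from triose phosphate isomerase to lactate dehydrogenase lie between -0.53 and 0.08.

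The enzymes of the later steps lay below 0 in both pools, except Gapdh and Pgk1, which were above 0 in the SCID pool. Eno1, the enolase of most tissues, was the lowest of all 33 genes, at -0.47 in the WT pool and -0.53 in the SCID pool, or 1.38-fold and 1.44-fold below the line. Tpi1, triose phosphate isomerase, was at -0.30 in the WT pool and -0.22 in the SCID pool. Pgam1, a phosphoglycerate mutase, was at -0.23 in the WT pool and -0.19 in the SCID pool, and Pkm, pyruvate kinase, at -0.18 in the WT pool and -0.17 in the SCID pool. Ldha, which makes lactate from pyruvate and is a classic HIF target, was at -0.14 in the WT pool and -0.16 in the SCID pool. Gapdh was at -0.07 in the WT pool and 0.08 in the SCID pool, Pgk1, phosphoglycerate kinase, at -0.09 in the WT pool and 0.05 in the SCID pool, and Gpi1, glucose phosphate isomerase of the second step, at 0.14 in the WT pool and 0.11 in the SCID pool.

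Some of these values rest on sequence that is not particular to the gene. Each matched transcript was cut into all stretches of 75 bases, the read length, and compared with every other gene of GENCODE vM21, pseudogenes included. Gapdh shared 80.3% and 88.2% of the stretches of its transcripts with other genes, 118 of them. Pgk1 shared 67.5%, Eno1 65.4%, Pgam1 40.6% and Pkm up to 20.4%. In the hypoxia group 13 of 17 genes shared none and the highest share was 15.3%, for Bnip3, whereas 7 of the 16 glycolysis genes shared none. How reads with several matches were counted was not stated, so the values of Gapdh, Pgk1, Eno1 and Pgam1 are uncertain, and the part of this sharing in the difference between the groups was not tested.

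The promoters of the 2 highest and 2 lowest glycolysis genes with a RefSeq promoter at their start are shown for comparison, with the same marks. Tpi1, second lowest in the SCID pool, had none at its deposited start, and Pgam1 stands in its place. The windows are chr13:6648722-6649021 (reverse strand) for Pfkp, chr6:82774405-82774704 (reverse strand) for Hk2, chr4:150236947-150237246 (forward strand) for Eno1 and chr19:41911621-41911920 (forward strand) for Pgam1.
Pfkp: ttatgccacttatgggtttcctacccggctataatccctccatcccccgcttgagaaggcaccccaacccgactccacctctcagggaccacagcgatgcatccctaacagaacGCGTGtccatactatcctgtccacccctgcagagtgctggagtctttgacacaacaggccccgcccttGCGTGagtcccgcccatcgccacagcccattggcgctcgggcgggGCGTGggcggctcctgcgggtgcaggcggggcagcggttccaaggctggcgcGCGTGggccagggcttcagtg
Hk2: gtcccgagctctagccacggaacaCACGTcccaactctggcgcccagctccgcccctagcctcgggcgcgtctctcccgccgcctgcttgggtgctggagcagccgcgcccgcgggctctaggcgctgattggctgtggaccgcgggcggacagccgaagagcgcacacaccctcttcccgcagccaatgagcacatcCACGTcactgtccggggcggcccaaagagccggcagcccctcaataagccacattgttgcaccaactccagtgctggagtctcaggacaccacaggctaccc
Eno1: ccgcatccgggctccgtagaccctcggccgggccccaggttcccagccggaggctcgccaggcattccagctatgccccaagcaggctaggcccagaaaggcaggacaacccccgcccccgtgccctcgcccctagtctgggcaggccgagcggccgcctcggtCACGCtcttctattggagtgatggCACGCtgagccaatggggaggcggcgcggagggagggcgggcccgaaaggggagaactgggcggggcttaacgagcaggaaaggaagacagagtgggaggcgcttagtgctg
Pgam1: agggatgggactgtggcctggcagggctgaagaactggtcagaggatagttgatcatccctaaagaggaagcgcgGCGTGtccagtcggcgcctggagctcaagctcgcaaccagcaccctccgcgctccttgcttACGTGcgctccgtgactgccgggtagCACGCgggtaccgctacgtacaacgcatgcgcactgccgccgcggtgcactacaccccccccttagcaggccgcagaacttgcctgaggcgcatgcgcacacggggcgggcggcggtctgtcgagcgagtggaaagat
Genes on both sides of 0 held the core here. Pfkp had 4 runs of capitals, Hk2 and Eno1 2 each and Pgam1 3.

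Transcripts of the same gene gave unlike values in several members, about as often as over all genes with 2 or more transcripts. The 33 genes had 66 transcripts, with 1 for 18 genes and 2 or more for 15. In 1 of the 15, Mxi1, the transcripts lay 1 or more apart against the line, in the WT pool and in the SCID pool alike. Over all genes with 2 or more transcripts that was so in 7.28% for the WT pool and 8.12% for the SCID pool. The transcript NM_001008542 of Mxi1, which starts 18907 bases upstream of the other, was at 1.79 in the WT pool and 1.93 in the SCID pool. The transcript NM_010847 was at 0.25 in the WT pool and 0.35 in the SCID pool. Of the stretches of 75 bases, 23.3% in the upstream form and 13.6% in the other were found in no other transcript of the 33 genes. The higher value of Mxi1 in the tumour pools was therefore that of the upstream transcript.

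**Figure D3:**
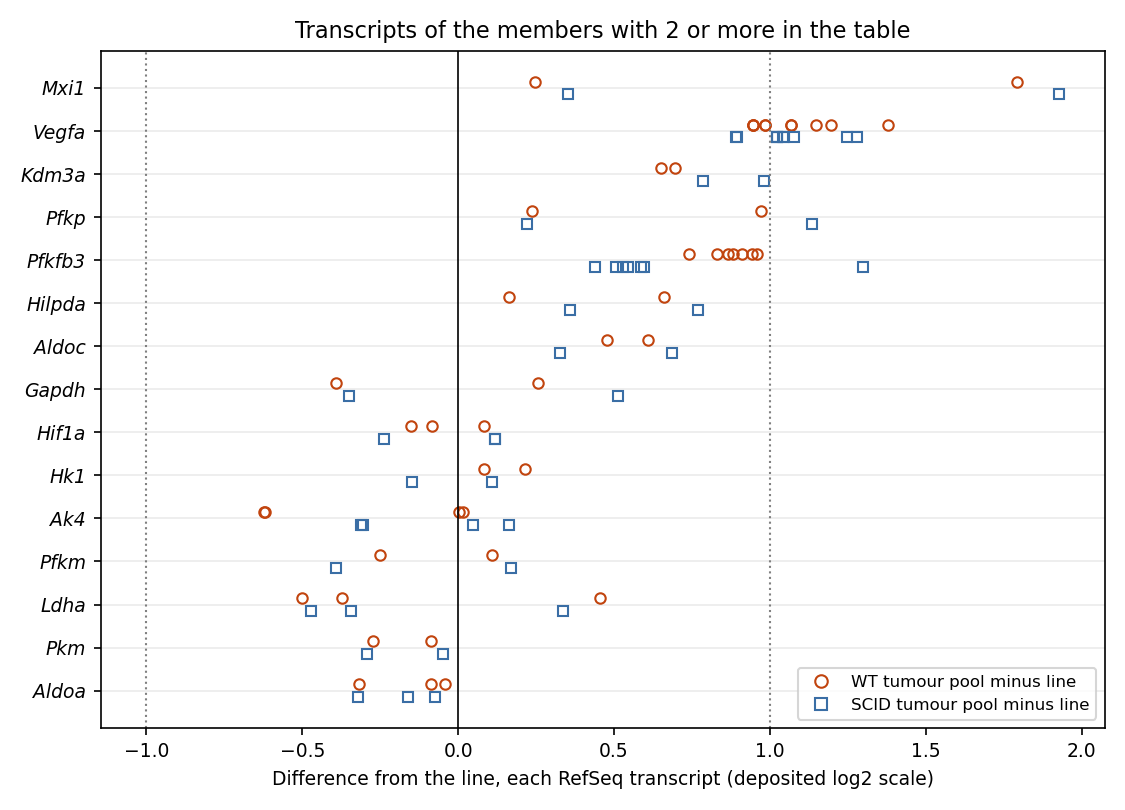
Difference of each RefSeq transcript from the cultured line for the 15 genes with 2 or more transcripts, in the WT tumour pool (circles) and the SCID tumour pool (squares), on the deposited log2 scale, with dotted lines at 2-fold. The 2 transcripts of Mxi1 lie 1.55 apart in the WT pool and 1.57 apart in the SCID pool, and those of Gapdh and Ldha lie on both sides of 0.

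The promoters of both Mxi1 start sites are printed because they separate the transcripts; they were chosen after the values were seen. The upstream window is chr19:53310256-53310555 (forward strand) and the downstream one chr19:53329163-53329462 (forward strand).
Mxi1 upstream: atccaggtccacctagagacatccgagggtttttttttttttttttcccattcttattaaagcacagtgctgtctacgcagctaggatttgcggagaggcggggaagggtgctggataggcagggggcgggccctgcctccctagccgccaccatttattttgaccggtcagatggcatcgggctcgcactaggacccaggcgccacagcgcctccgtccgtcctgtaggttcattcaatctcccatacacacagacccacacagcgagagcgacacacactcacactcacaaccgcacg
Mxi1 downstream: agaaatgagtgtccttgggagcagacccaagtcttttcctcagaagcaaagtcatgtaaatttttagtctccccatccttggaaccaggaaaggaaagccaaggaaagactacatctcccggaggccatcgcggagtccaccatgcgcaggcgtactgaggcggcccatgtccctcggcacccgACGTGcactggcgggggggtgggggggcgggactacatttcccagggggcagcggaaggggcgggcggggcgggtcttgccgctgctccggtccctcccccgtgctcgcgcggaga
The upstream window, of the transcript with the higher value, had no run of capitals, and the downstream window had 1. The lack of a match says only that these letters are not within this window.

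Other members divided less widely. The Pfkp transcript NM_001291071 was at 0.97 in the WT pool and 1.13 in the SCID pool, while NM_019703, from the same start, was at 0.24 in the WT pool and 0.22 in the SCID pool. The Ldha transcript NM_001136069, which starts 1278 bases downstream of the others, was at 0.46 in the WT pool and 0.34 in the SCID pool, against -0.50 in the WT pool and -0.47 in the SCID pool for NM_010699. Only 0.33% of the stretches of NM_010699 were its own, so these values depend on how shared reads were divided. The Gapdh transcript NM_008084 was at 0.26 in the WT pool and 0.51 in the SCID pool, and NM_001289726 at -0.39 in the WT pool and -0.35 in the SCID pool. Transcripts lay on both sides of 0 in 5 of the 15 genes for the WT pool and in 6 for the SCID pool, where 34.7% and 35.7% of all genes with several transcripts did. Vegfa had 7 transcripts from an upstream start, with a mean of 0.99 in each pool, and 3 from a start 7214 bases downstream, with means of 1.24 in the WT pool and 1.202 in the SCID pool. Most of the 7 had no stretch of their own and the 3 had no matched sequence. These means too may depend on how shared reads were divided.

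Between the tumour pools the differences were small. No gene of either group was higher by 2-fold in the WT pool than in the SCID pool, where 0.303% of all genes were, or lower by 2-fold, where 0.0168% of all genes were. In the hypoxia group 15 of 17 genes were below 0, against 48.5% of all genes, with a median of -0.10 beside 0.004 over all genes. In the same comparison 10 of 14 immediate-early genes were below 0 with a median of -0.12. All 11 tumour epithelium markers were above 0 with a median of 0.19, and the 4 macrophage markers with a value had a median of 1.04. The 3 fibroblast markers with a value lay on both sides of 0, with Col1a1, a collagen, at -0.71, Ly6c1 at 0.41 and a median of -0.06. The part of these in the hypoxia values was not tested. Of the 7 genes past 2-fold against the line, 6 were below 0 in WT minus SCID and Vegfa was at 0.01. These 7 were picked by values that also enter WT minus SCID. The share below 0 among all genes picked alike was not counted. All 17 genes of the hypoxia group lay within 0.3 of 0 and 8 within 0.1. Only Ero1l, Bnip3, Pfkfb3 and Higd1a reached the SD between transcripts of 0.22. Transcripts lay on both sides of 0 in 10 of the 15 genes with several, against 58.1% of all such genes. In the glycolysis group 9 of 16 genes were below 0, with a median of -0.02, and 12 lay within 0.1 of 0. With the values adjusted for GC content and length 13 of the 16 were below 0. The adjusted median of the group was -0.06, beside 0.003 over all genes. Of the 13, Ldha, Pfkm, Aldoa and Gpi1 were barely below, between -0.013 and -0.003. The share of all genes below 0 after adjustment was not counted.

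The genes farthest below 0 were Ero1l at -0.29, which ranked 243 from the bottom of 11886 genes, and Bnip3 at -0.25, which ranked 380. Higd1a was at -0.22, Kdm3a at -0.21, Ak4 at -0.20, Car9 at -0.16 and Hilpda at -0.15. Mxi1 at -0.12, Egln1 at -0.10, Ddit4, Ndrg1 and Ankrd37 each at -0.09, Hif1a at -0.05, Egln3 at -0.04 and Pfkfb4 at -0.03 were closer to 0. Adjusted for GC content and length, Bnip3 was at -0.16, and Hif1a was on the other side of 0 at 0.06. Pfkfb3 was the highest of the hypoxia group in WT minus SCID at 0.23. Its transcripts disagreed, with 6 of 7 between 0.30 and 0.36 and NM_001177752 at -0.39, and most of its transcripts have no stretch of their own, so a direction for Pfkfb3 cannot be given.

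**Figure D4:**
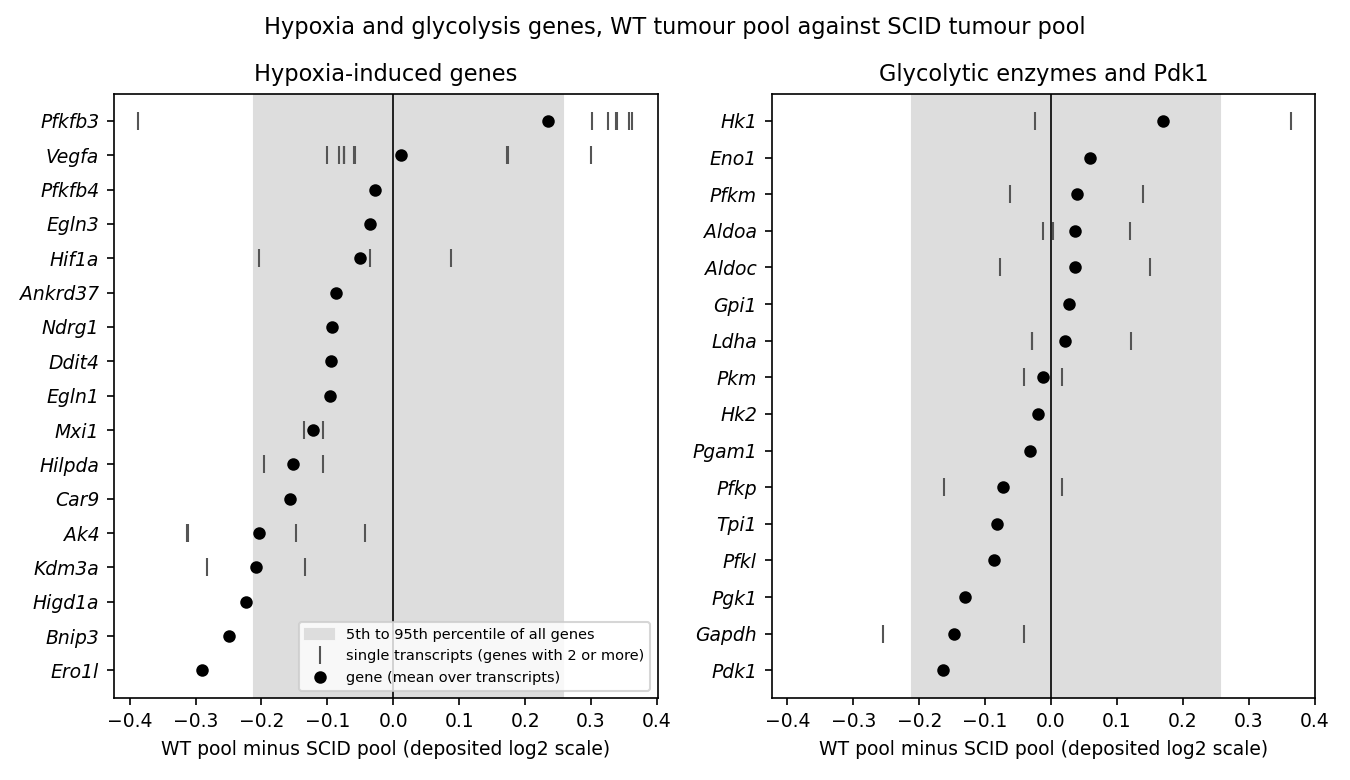
WT tumour pool minus SCID tumour pool for each gene (points) and for single transcripts of genes with 2 or more (ticks), on the deposited log2 scale, over the range from the 5th to the 95th percentile of all genes (grey). Of the 17 hypoxia-induced genes 15 lie below 0, with Ero1l at -0.29 and Bnip3 at -0.25 lowest, and the 16 glycolysis genes lie between -0.16 and 0.17.

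Among glycolysis genes in WT minus SCID, Hk1 was highest at 0.17, from a transcript at 0.36 and another at -0.02, and Pdk1 lowest at -0.16. Gapdh was at -0.15, Pgk1 at -0.13, Pfkl at -0.09, Tpi1 at -0.08 and Pfkp at -0.07. Eno1 was at 0.06, and Pgam1, Hk2, Pkm, Ldha, Gpi1, Aldoc, Aldoa and Pfkm lay between -0.03 and 0.04. All 16 were smaller than the SD between transcripts.

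Further genes of the pathway came from lists written with earlier results of these data known. Of 40 other HIF target genes 34 had a value. In the WT pool 29 of 34 were above the line, against 48.6% of all genes, with a median of 0.43; 2 were higher by 2-fold and 1 lower, against 4.12% and 2.03% of all genes. In the SCID pool 29 were above the line, against 48.3% of all genes, with a median of 0.45; 4 were higher by 2-fold and 1 lower, against 3.65% and 2.62% of all genes. The lower counts are near the share over all genes, as is the higher count in the WT pool. Pgf, a relative of Vegfa that acts on blood vessels, was at 1.38 in the WT pool and 1.40 in the SCID pool. Dusp1, a phosphatase of MAP kinases that is also an immediate-early gene, was at 1.87 in the WT pool and 1.93 in the SCID pool. Tfrc, the transferrin receptor, was lower, at -1.75 in the WT pool and -1.61 in the SCID pool. Tfrc is also used by dividing cells for iron uptake. In WT minus SCID 23 of the 34 genes were below 0, against 48.5% of all genes, with a median of -0.06, and the farthest were Hmox1, haem oxygenase, at 0.50 and Vldlr, a lipoprotein receptor, at -0.43.

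The machinery that controls HIF showed smaller values. Of 24 listed regulators 20 had a value, and the median was 0.04 in the WT pool and 0.04 in the SCID pool. The only one past 2-fold was Arnt2, a partner subunit of HIF, in the SCID pool at 1.07, and it was at 0.79 in the WT pool. Os9, a lectin of the endoplasmic reticulum, was at 0.58 in the WT pool. In WT minus SCID 13 of the 20 were below 0, where 48.5% of all genes were, and Arnt2 was at -0.28 and Siah1b, a ubiquitin ligase, at -0.27.

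Other genes of glucose and lactate handling lay on both sides of the line. Of 44 listed genes 31 had a value. In the WT pool 12 were above 0 and 19 below, where 48.6% of all genes were above 0. In the SCID pool 13 were above 0 and 18 below, where 48.3% of all genes were above 0. The medians were -0.19 in the WT pool and -0.20 in the SCID pool. Tigar, a phosphatase that slows glycolysis, was at -0.92 in the WT pool and -1.02 in the SCID pool. Bsg (basigin), the chaperone of lactate transporters, was at 0.71 in the WT pool and 0.86 in the SCID pool. The glucose transporter Slc2a1 (GLUT1), named here after its value was seen, was at 0.39 in the WT pool and 0.46 in the SCID pool, within 2-fold. In WT minus SCID the farthest were Pgm1, a phosphoglucomutase, at 0.25 and Slc16a3, a lactate exporter, at 0.17.

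**Figure D5:**
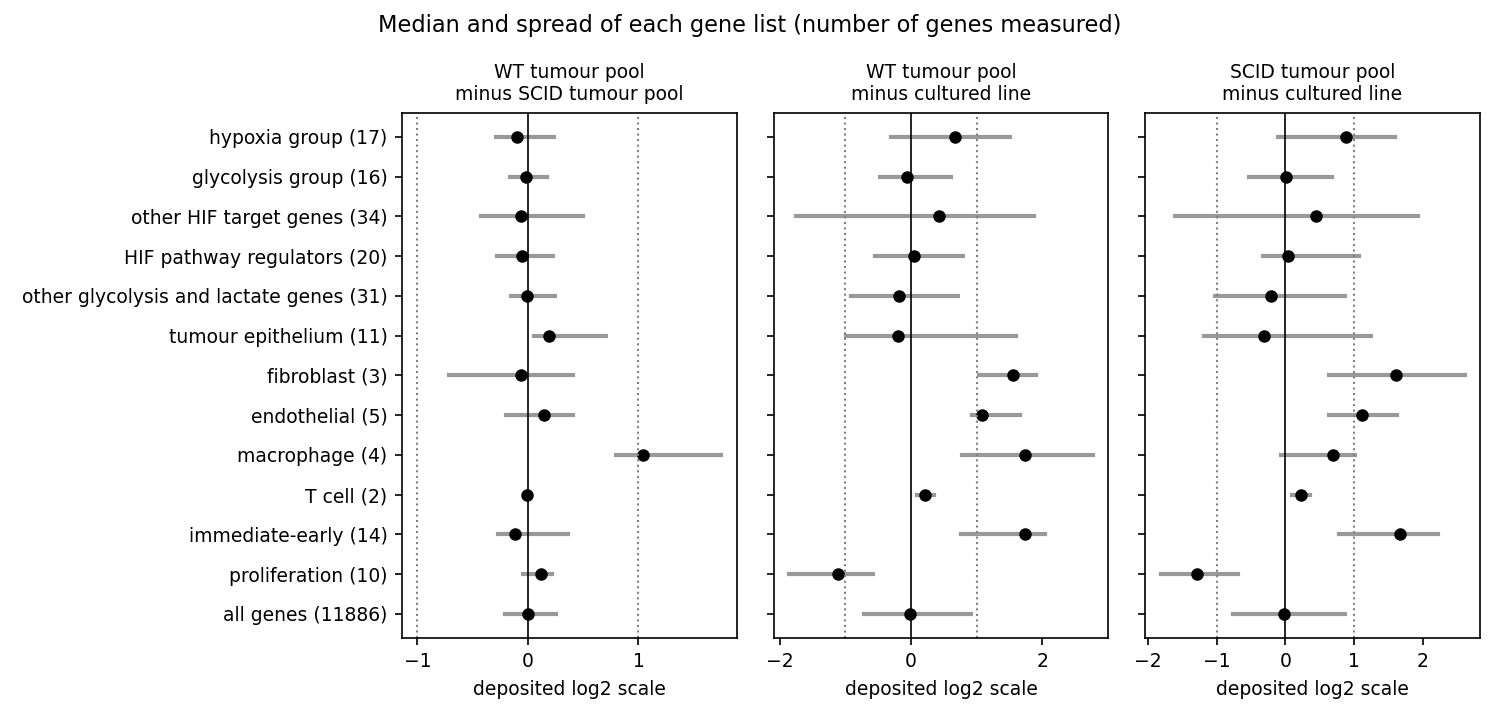
Median (points) and range from the lowest to the highest gene (bars; for all genes the 5th to the 95th percentile) of each gene list in the 3 comparisons, on the deposited log2 scale, with the number of genes measured and dotted lines at 2-fold. The hypoxia group has medians of 0.67 in the WT pool and 0.88 in the SCID pool against the line, beside -0.07 in the WT pool and 0.01 in the SCID pool for the glycolysis group.

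Markers of other cells and states also differed from the line. Against the line, immediate-early genes, which respond within minutes to handling of tissue, had 11 of 14 higher by 2-fold in each pool. Of all genes 4.12% were in the WT pool and 3.65% in the SCID pool. The medians of the immediate-early genes were 1.74 in the WT pool and 1.67 in the SCID pool. All 10 proliferation genes were below 0, with medians of -1.12 in the WT pool and -1.28 in the SCID pool. For these and the markers that follow, 48.6% of all genes were above 0 in the WT pool and 48.3% in the SCID pool. Of 14 endothelial markers 5 had a value and all were above the line, between 0.93 and 1.66 in the WT pool and between 0.63 and 1.63 in the SCID pool; Pecam1 and Cdh5 had no row. Of 15 fibroblast markers 3 had a value, with Ly6c1 in this list and in the endothelial one, and all were above the line, with Col1a1 at 1.90 in the WT pool and 2.61 in the SCID pool. Of 15 macrophage markers 4 had a value, with medians of 1.73 in the WT pool, 0.70 in the SCID pool and 1.04 in WT minus SCID; Ptprc, which all white blood cells express, had no row. The T cell markers Foxp3 and Tcf7 were at 0.09 and 0.35 in the WT pool and at 0.10 and 0.36 in the SCID pool, and no neutrophil or red cell marker had a row. The tumour epithelium list had a median of -0.19 in the WT pool and -0.31 in the SCID pool, with members far on both sides: Epcam was at 1.59 in the WT pool and 1.25 in the SCID pool, and Krt7 at -0.99 in the WT pool and -1.18 in the SCID pool. The part of host cells, of handling and of slower division in the hypoxia values was not tested. Because sorting was described for both tumour groups and not for the line, sorting and growth in a mouse cannot be told apart.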

How the data were processed

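RNA was measured by stranded poly(A) RNA-seq in 3 libraries, 1 per group, with paired reads of 75 bases and a stated mean depth of 40000000 reads, per the labels. The authors deposited log2 fold changes for 17910 RefSeq transcripts, in a column for each tumour pool against the line and another whose name gives only SCID. That column equalled SCID minus WT within 1e-12 for all 17910 transcripts and is given here as WT minus SCID. The log base is not in the header; log2 was assumed since DESeq2 1.20.0, whose fold changes are log2, stands in the submitters' processing notes, beside BWA, Partek, R 3.5.1 and mm9 in no stated role. Shrinkage and filters were not stated. Of 66 member transcripts, 60 lay inside the span of their gene in RefSeq's GRCm38.p6 table, all 66 on the same chromosome and 65 under the same symbol, and 28 of 33 members had a GRCm38.p6 promoter at exactly a deposited start, so coordinates were read as GRCm38.

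From the table, transcripts were averaged per gene (Python 3.11.15, pandas 2.3.3), and calls were made at 2-fold. No p-value is given, and no paired test was possible. The members and lists were chosen with earlier results of these data known. All members are named. Genes with values from other lists were among the 2 highest and 2 lowest past 2-fold or else the 2 farthest from 0, except Slc2a1. Not all listed genes that met this rule were described, for example Apoe and Cd68 of the macrophage list. Alternatives were the median or farthest transcript, coding transcripts, genes with 1 transcript, centring on the median gene, calls at 1.5-fold, and values adjusted for GC content and log10 transcript length by a quadratic fit, using GENCODE vM21 sequences for 93.2% of transcripts. Scripts were tested on simulated data.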

Additional observations from a re-analysis of the deposited data

Results flagged for a closer look

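Against the line, 3 glycolysis genes lay on different sides of 0 in the tumour pools, and the share of all genes that did was not counted. Hk1 was at 0.15 in the WT pool and -0.02 in the SCID pool. Gapdh was at -0.07 in the WT pool and 0.08 in the SCID pool. Pgk1 was at -0.09 in the WT pool and 0.05 in the SCID pool. With 1 library per group these differences were not tested, both pools share the line library, and each is smaller than the pooled SD between transcripts of a gene.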

How the results depend on the processing

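The counts of genes past 2-fold depended on the threshold more than on other choices. At 1.5-fold, 11 of 17 hypoxia genes were higher than the line in the WT pool and 11 in the SCID pool, and 1 glycolysis gene, Pfkp, was higher in each. With the farthest transcript of each gene, 1 glycolysis gene, again Pfkp, passed 2-fold in the SCID pool, as did Pfkfb3, and of 99 single values 11 moved by more than the spread between transcripts. With the median transcript or the adjustment for GC content and length, 0 single values moved that far. The median equals the mean for genes with 1 or 2 transcripts, so it could move only the others. With coding transcripts alone, genes with 1 transcript or centring, 0 moved that far either, but these settings could hardly move a value. Only the member Ldha had a non-coding transcript, genes with 1 transcript keep their value, and centring shifted all genes alike by at most 0.02. The count of hypoxia genes below 0 in WT minus SCID was 15 of 17 as reported and when adjusted for GC content and length, and 16 with the median or the farthest transcript. The group median was -0.15 when adjusted and -0.16 with the farthest transcript. That adjustment put Vegfa, Hif1a, Gpi1, Pfkm, Aldoa and Ldha on the other side of 0 in WT minus SCID, Pfkfb4, Hif1a, Hk1, Pfkl, Gapdh and Pgk1 in the WT pool against the line, and Pfkfb4 in the SCID pool. In WT minus SCID the median transcript did so for Vegfa and Ldha and the farthest one for Pfkfb3. Hif1a in the SCID pool changed side with the median transcript and with centring. Scalings and filters that need counts or levels were not run. No paired analysis was possible because each group has 1 library. The depth of each library is unknown, and no value has an interval.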
